A study of Schizosaccharomyces pombe with 5 samples.

Results

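The mRNAs of 4 trehalose genes of fission yeast are described here, chosen by name from the deposited expression tables. They are tps1 (SPAC328.03), tpp1 (SPAC19G12.15c) and SPAC22F8.05, which belong to trehalose synthesis, and ntp1 (SPBC660.07), which encodes neutral trehalase. All 4 were measured, among 5134 genes with a p-value in every comparison, and the tables carry no symbol for SPAC22F8.05. The cells were wild-type Schizosaccharomyces pombe of the strain 972 h-, grown at 30 °C. Messenger RNA was sequenced, from total RNA of cells in 3 mM diamide (DIA) for 30 min (DIA30) or 60 min (DIA60), of cells in 75 mM hydroxyurea (HU) for 60 min (HU60) or 150 min (HU150), and of untreated cells (control). DIA oxidizes thiols, and HU inhibits ribonucleotide reductase, the enzyme that makes the building blocks of DNA. The study names an expanded perinuclear endoplasmic reticulum with clustered nuclear pore complexes the nuclear cap (N-Cap) phenotype. By its methods, DIA30 and HU60 precede this phenotype, and DIA60 and HU150 mark its onset. No untreated cells were taken at each of these times, so the drug and the age of the culture cannot be told apart.

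Trehalose is a disaccharide of glucose that yeasts accumulate under heat, oxidative and osmotic stress, where it stabilizes proteins and membranes. Trehalose-6-phosphate synthase (Tps1) joins UDP-glucose and glucose-6-phosphate, trehalose-6-phosphate phosphatase (Tpp1) removes the phosphate, and neutral trehalase (Ntp1) splits trehalose back into glucose. In fission yeast, tps1 and ntp1 are known as stress genes downstream of the MAP kinase Sty1 and the transcription factor Atf1, and the trehalase enzyme is also activated by phosphorylation through protein kinase A and Sck1. SPAC22F8.05 carries the RefSeq product name alpha,alpha-trehalose-phosphate synthase, and its role in the cell is not stated there. By the RefSeq annotation, ntp1 lies on chromosome II and the other members on chromosome I.

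The comparisons rest on 15 libraries with 24116729 to 24274040 read pairs each. Each deposited comparison with the control gives the log2 fold change (LFC) of a gene, its standard error (SE) and the p-value of the authors' DESeq2 Wald test, adjusted by the Benjamini-Hochberg method over all genes. A gene passed the test at an adjusted p below 0.05. A gene was called raised or lowered where the change was also at least 2-fold, the threshold of the study's methods. Levels are given as normalized counts rebuilt from the mean over all libraries and the LFCs of a gene. The SD beside a level is the spread between 3 repetitions that the SEs imply under the count model of the test, and values per library were not used here. In RNA from whole cultures, a change in all cells and a change in a part of them cannot be told apart.

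All 4 genes responded to the drugs, and in 3 of them HU60 and DIA60 moved the mRNA in opposite directions. SPAC22F8.05 was the only member to reach a 2-fold change, with LFCs of -4.13 in DIA30 and -4.10 in DIA60. The members tps1 and ntp1 were higher in HU and lower in DIA60, by less than 2-fold. The phosphatase gene tpp1 was higher with both drugs at both times. At the 2-fold threshold, 1 of 4 members was lowered and none raised in DIA30, where 1.69% of all genes were lowered and 3.04% raised. In DIA60, 1 of 4 was lowered and none raised, against 3.95% and 4.19% of all genes. No member was called by DESeq2 at this threshold in HU60 or HU150, where 2.28% and 5.78% of all genes were called in either direction, although all 4 had an unadjusted p below 0.05 in each of them. Without a minimum fold change, 3 members passed in DIA30 and 4 in DIA60, and 4 in HU60 and 4 in HU150. The background for these counts was high, since 57.2% of all genes passed in DIA30 (29.1% upward and 28% downward), 71.7% in DIA60 (36.4% and 35.3%), 46.8% in HU60 (24.6% and 22.2%) and 64.9% in HU150 (33.1% and 31.7%). The median LFC of the 4 members was -0.26 in DIA30 and -0.52 in DIA60, and 0.63 in HU60 and 0.23 in HU150, while the median of all genes lay between 0.00 and 0.01.

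**Figure D1:**
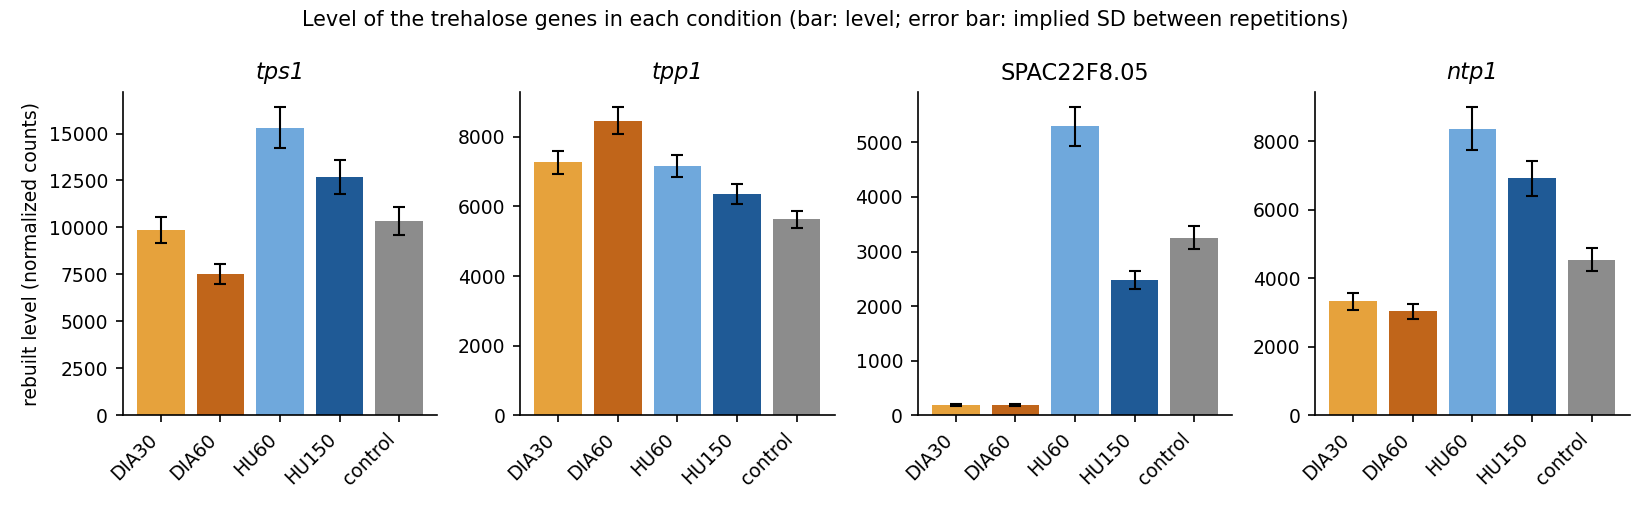
Rebuilt levels of tps1, tpp1, SPAC22F8.05 and ntp1 in normalized counts (bars) in DIA30, DIA60, HU60, HU150 and control cells, with the SD between repetitions implied by the standard errors (error bars) and a separate axis for each gene. SPAC22F8.05 stood at 186 and 191 normalized counts in DIA30 and DIA60, against 3257 in control cells, while the other 3 genes stayed within a 2-fold change of the control.

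The synthase gene tps1 had a mean of 11142 normalized counts over all libraries, by the authors' table. Its level was 9858 normalized counts in DIA30 and 7525 in DIA60, and 15298 in HU60 and 12660 in HU150, against 10366 in control cells, with an implied spread of 7.14% to 7.19% of the level. The gene was thus highest in HU60 and lowest in DIA60, which differed 2.03-fold. In HU60, tps1 rose 1.48-fold (LFC 0.56, SE 0.08, adjusted p = 2.78e-10), above the LFC of 93.9% of all genes. In HU150 it rose 1.22-fold (LFC 0.29, SE 0.08, adjusted p = 0.00129). In DIA60 it fell to 0.726 of the control (LFC -0.46, SE 0.08, adjusted p = 1.23e-07). The LFC in DIA30 was -0.07 with a 95% interval of -0.24 to 0.09 (adjusted p = 0.477), so that DIA30 and control, neighbours in the order of levels, could not be separated.

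The phosphatase gene tpp1 had the smallest spread of the members, 4.47% to 4.53% of the level. It stood at 7263 normalized counts in DIA30 and 8465 in DIA60, and 7167 in HU60 and 6347 in HU150, against 5626 in control cells, which was the lowest of the 5 conditions. It rose 1.29-fold in DIA30 (LFC 0.37, SE 0.05, adjusted p = 3.07e-11) and 1.5-fold in DIA60 (LFC 0.59, SE 0.05, adjusted p = 8.69e-28). With HU it rose 1.27-fold at 60 min (LFC 0.35, adjusted p = 5.16e-10) and 1.13-fold at 150 min (LFC 0.17, adjusted p = 0.00211). Its LFC lay above that of 87.8% of all genes in DIA30 and 89.5% in DIA60, and of 88.4% in HU60 and 68.9% in HU150. Its range over the conditions stood out less. The highest condition of tpp1 was 1.5-fold above its lowest, and 60.7% of the 4867 genes with a mean of at least 50 normalized counts had a smaller range, against 86.1% for tps1, 92.9% for ntp1 and 99.9% for SPAC22F8.05. Over the same genes the median range was 1.41-fold.

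SPAC22F8.05 showed the largest changes of the 4 genes. Its level was 186 normalized counts in DIA30 and 191 in DIA60, and 5290 in HU60 and 2479 in HU150, against 3257 in control cells, with an implied spread of 9.71% and 9.77% in DIA and of 6.61% to 6.77% in the other conditions. The higher spread in DIA follows from the lower counts there, since 1 dispersion per gene was assumed. The spread within single conditions was not measured. The level in HU60 was 28.4 times that in DIA30. In DIA30 the LFC was -4.13 (SE 0.10, 95% interval -4.32 to -3.93), which put the control 17.5-fold above the treated cells. In DIA60 the LFC was -4.10 (SE 0.10, 95% interval -4.29 to -3.90), a 17.1-fold difference. Both adjusted p-values are listed as 0 in the tables, below the smallest number they hold. Among all 5134 genes this LFC was number 2 from the lowest in DIA30 and number 3 in DIA60. Among the genes lowered at least 2-fold that had a mean of at least 50 normalized counts, SPAC22F8.05 was number 1 of 71 in DIA30 and number 2 of 184 in DIA60. In HU60 the same gene rose 1.62-fold (LFC 0.70, SE 0.08, adjusted p = 6.33e-18), above the LFC of 95.5% of all genes. In HU150 it fell to 0.761 of the control (LFC -0.39, SE 0.08, adjusted p = 1.70e-06). It was the only member whose direction changed between the times of a drug.

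**Figure D2:**
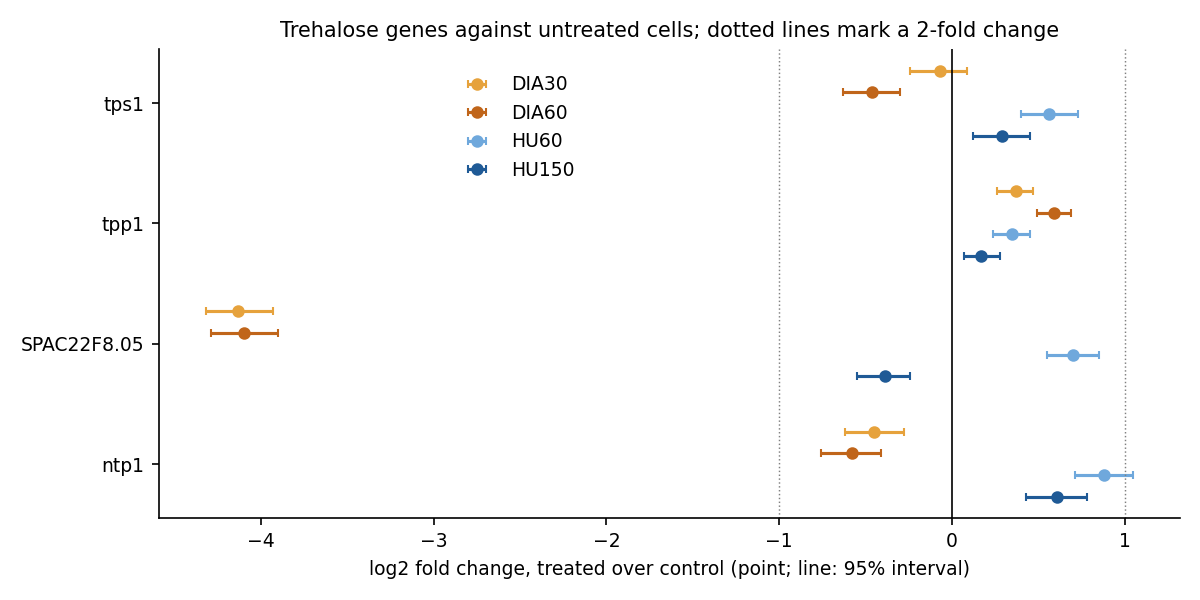
Log2 fold change of each gene against control cells (points, x axis) with its 95% interval (lines), for DIA30, DIA60, HU60 and HU150, with dotted lines at a 2-fold change. SPAC22F8.05 lies at -4.13 and -4.10 in DIA, and tpp1 is the only gene with all 4 points to the right of 0.

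The trehalase gene ntp1 followed the same order of conditions as tps1. Its level was 3325 normalized counts in DIA30 and 3035 in DIA60, and 8373 in HU60 and 6923 in HU150, against 4548 in control cells, with an implied spread of 7.39% to 7.53%. The level in HU60 was thus 2.76 times that in DIA60. In HU60, ntp1 rose 1.84-fold (LFC 0.88, SE 0.09, adjusted p = 2.34e-22), the largest rise among the members and above the LFC of 96.9% of all genes. The upper end of the interval, 1.05, lay past the 2-fold threshold that the estimate missed. In HU150 it rose 1.52-fold (LFC 0.61, SE 0.09, adjusted p = 2.02e-11). In DIA30 it fell to 0.731 of the control (LFC -0.45, SE 0.09, adjusted p = 1.34e-06), below the LFC of all but 9.64% of the genes, and in DIA60 to 0.667 (LFC -0.58, SE 0.09, adjusted p = 1.32e-10). The lower end of the level range therefore belonged to DIA in tps1, SPAC22F8.05 and ntp1, and to control cells in tpp1.

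**Figure D3:**
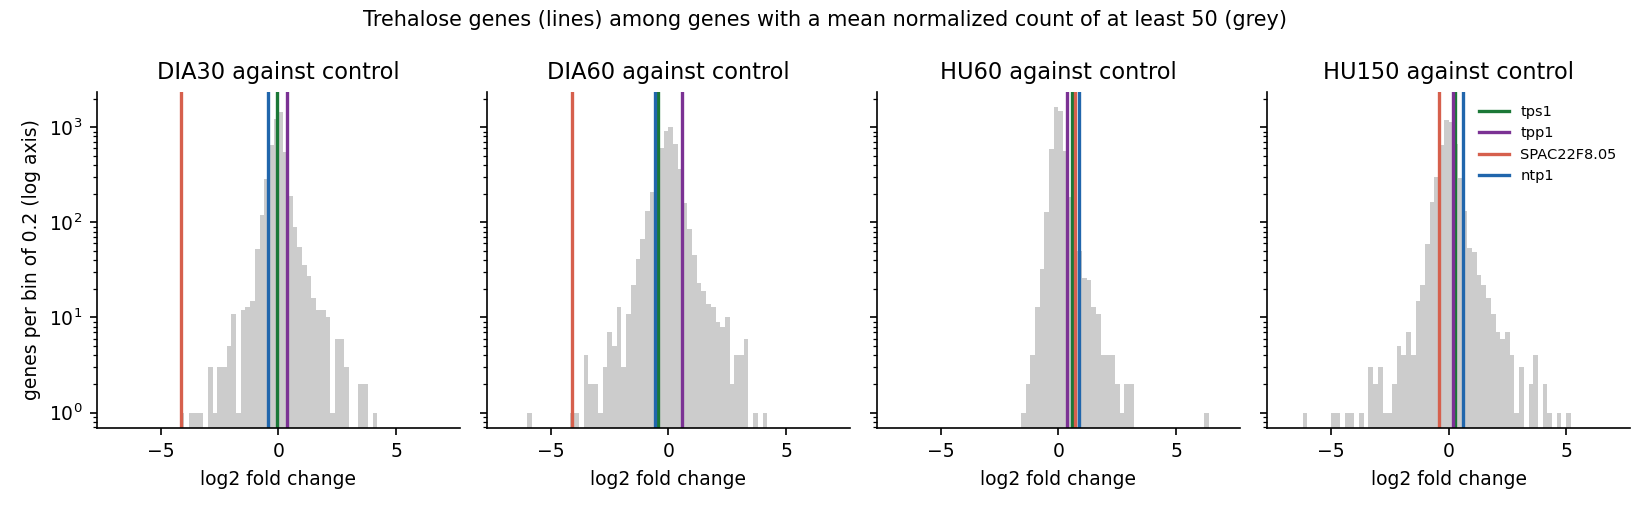
Number of genes (grey, log axis, bins of 0.2) by log2 fold change against control for the 4867 genes with a mean of at least 50 normalized counts, with the 4 trehalose genes as coloured lines, in DIA30, DIA60, HU60 and HU150. In DIA the line of SPAC22F8.05 stands at the far left, at -4.13 and -4.10, and in HU60 all 4 lines lie between 0.35 and 0.88.

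Whether the genes of synthesis and breakdown changed by the same factor was read from the difference of their LFCs, in which transcript length cancels. The ratios are of mRNAs, and neither enzyme activity nor trehalose was measured in these data. The differences are given with 95% intervals and no p-value, since the members were chosen by name with results of these data known. Of 24 differences, 6 pairs of genes in 4 comparisons, 20 had an interval without 0. The SE of a difference treats both genes as independent although they were measured in the same libraries. With the sum of both SEs, the largest value any correlation between the genes allows, 17 of 24 intervals were without 0, and the 3 lost were those of tps1 and tpp1 in HU60 and of tps1 and ntp1 in HU60 and HU150. The ratio of tpp1 to ntp1 increased 1.77-fold in DIA30 (log2 difference 0.82, interval 0.62 to 1.02) and 2.25-fold in DIA60 (1.17, interval 0.97 to 1.37). With HU the same ratio went the other way, to 0.692 of the control in HU60 (-0.53, interval -0.73 to -0.33) and 0.741 in HU150 (-0.43, interval -0.63 to -0.23). The ratio of tps1 to ntp1 changed less. It was 1.3-fold the control ratio in DIA30 (0.38, interval 0.14 to 0.62), 0.801 of it in HU60 (-0.32, interval -0.56 to -0.08) and 0.802 in HU150 (-0.32, interval -0.56 to -0.08), while in DIA60 the interval held 0 (0.12, interval -0.12 to 0.36). The ratio of SPAC22F8.05 to ntp1 was 0.0782 of the control ratio in DIA30 (-3.68, interval -3.94 to -3.41) and 0.0876 in DIA60 (-3.51, interval -3.77 to -3.25). It was 0.5 of it in HU150 (log2 interval -1.23 to -0.77), while in HU60 the interval held 0 (-0.18, interval -0.41 to 0.05).

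Within synthesis, the genes did not move by a common factor in DIA. The ratio of tps1 to tpp1 was 0.483 of the control ratio in DIA60 (log2 difference -1.05, interval -1.25 to -0.86) and 0.737 in DIA30 (-0.44, interval -0.64 to -0.25). In HU60 it was 1.16-fold (0.21, interval 0.02 to 0.41), and in HU150 the interval held 0 (0.11, interval -0.08 to 0.31). SPAC22F8.05 parted from both of the others. The ratio of tpp1 to SPAC22F8.05 was 22.6-fold that of control cells in DIA30 (4.50, interval 4.27 to 4.72) and 25.7-fold in DIA60 (4.69, interval 4.47 to 4.90), and it was 0.785 of it in HU60 (-0.35, interval -0.54 to -0.17) and 1.48-fold in HU150 (0.57, interval 0.38 to 0.75). The ratio of tps1 to SPAC22F8.05 was 16.6-fold that of control cells in DIA30 (4.06, interval 3.80 to 4.31) and 12.4-fold in DIA60 (3.63, interval 3.38 to 3.89). For this pair the interval held 0 in HU60 (-0.14, interval -0.36 to 0.09), and in HU150 the ratio was 1.6-fold (0.68, interval 0.46 to 0.91). Whether reads could be shared between tps1 and SPAC22F8.05 was not examined.

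**Figure D4:**
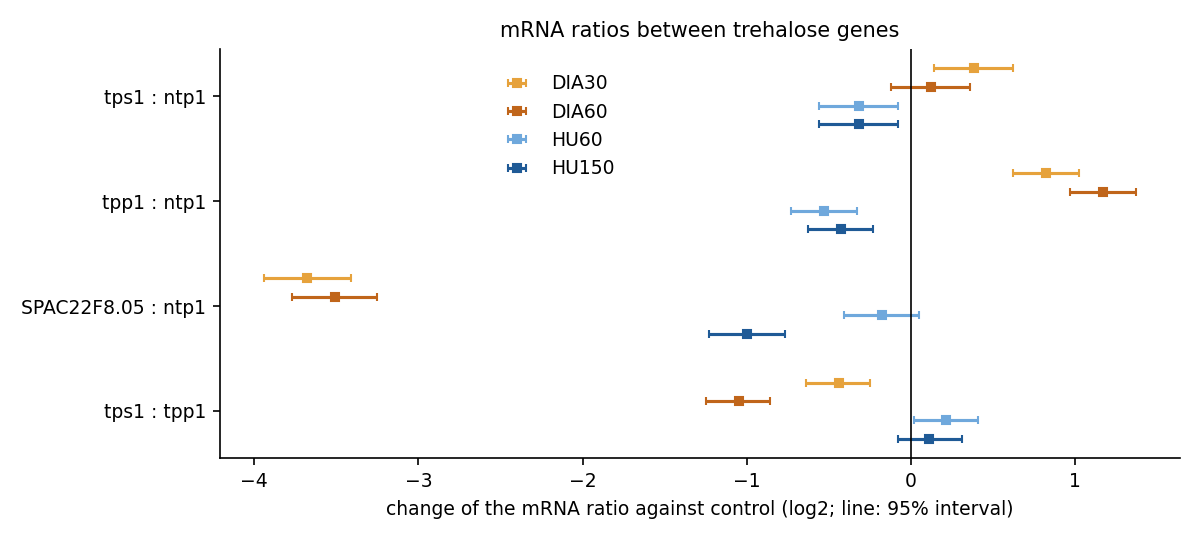
Change of 4 mRNA ratios against control (log2 difference of fold changes, squares, with 95% intervals as lines) for DIA30, DIA60, HU60 and HU150. The ratio of tpp1 to ntp1 lies at 0.82 and 1.17 in DIA and at -0.53 and -0.43 in HU, and that of SPAC22F8.05 to ntp1 lies at -3.68 and -3.51 in DIA.

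The drugs were then compared with each other through a z-test on the difference of LFCs, with p-values adjusted over all 5134 genes. Its SE counts the shared control libraries as if they were separate and is therefore too large. After 60 min, all 4 members differed between HU60 and DIA60, where 58.7% of all genes passed. SPAC22F8.05 was 27.8-fold higher in HU60 than in DIA60 (difference 4.80, SE 0.13, interval 4.55 to 5.04), number 4 from the highest of all genes, with an adjusted p too small to be written other than 0. The trehalase gene ntp1 was 2.76-fold higher (1.46, SE 0.12, adjusted p = 1.24e-30) and tps1 2.03-fold higher (1.02, SE 0.12, adjusted p = 1.11e-16). The phosphatase gene tpp1 was on the other side, at 0.847 of its DIA60 level in HU60 (-0.24, SE 0.08, adjusted p = 0.00304). Between the conditions at the onset of N-Caps, HU150 and DIA60, the order was the same and all 4 members passed, with 66.8% of all genes. SPAC22F8.05 differed by 3.70 (SE 0.13, adjusted p = 1.61e-188), ntp1 by 1.19 (SE 0.12, adjusted p = 1.16e-20), tps1 by 0.75 (SE 0.12, adjusted p = 1.40e-09) and tpp1 by -0.42 (SE 0.08, adjusted p = 1.06e-07). Before N-Caps, HU60 exceeded DIA30 in SPAC22F8.05 (4.83), ntp1 (1.33, adjusted p = 2.65e-25) and tps1 (0.63, adjusted p = 6.54e-07), and 52.3% of all genes passed. For tpp1 this difference was -0.02 with an interval of -0.17 to 0.13 (adjusted p = 0.846). Doses and times differ between the drugs, except for the time in HU60 and DIA60.

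Within a drug, the largest difference between the times was that of SPAC22F8.05 in HU. With DIA, tps1 was lower in DIA60 than in DIA30 (difference -0.39, SE 0.12, adjusted p = 0.00478) and tpp1 was higher (0.22, SE 0.08, adjusted p = 0.0119), where 38.1% of all genes passed. The differences were 0.03 for SPAC22F8.05 (interval -0.24 to 0.31, adjusted p = 0.884) and -0.13 for ntp1 (interval -0.38 to 0.11, adjusted p = 0.433). SPAC22F8.05 had thus already fallen after 30 min, and a further change by 60 min was not detectable beyond that interval. Between HU150 and HU60, SPAC22F8.05 was 2.13-fold lower in HU150 (-1.09, SE 0.11, adjusted p = 5.47e-21), and 25.7% of all genes passed. The other members did not pass there, with -0.27 for tps1 (adjusted p = 0.0765), -0.18 for tpp1 (adjusted p = 0.0708) and -0.27 for ntp1 (adjusted p = 0.0885). With an SE rebuilt from the treated groups alone, which leaves the shared control out, these 3 did pass (adjusted p = 0.00411, 0.00338 and 0.00549).

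Of 7 names listed for genes that supply the substrates of trehalose synthesis, 6 were found among the measured genes. The name glk1 matched no gene name or synonym. In DIA60, 4 of them fell and none rose, where 35.3% of all genes fell and 36.4% rose, and the median LFC was -0.40 against 0.01 over all genes. A single gene was lowered at least 2-fold, as were 3.95% of all genes. That gene was fyu1 (SPCC1322.04), a UTP-glucose-1-phosphate uridylyltransferase that makes UDP-glucose, with an LFC of -1.64 in DIA60 (SE 0.06, adjusted p = 3.62e-161). The same gene fell in DIA30 (-0.89), HU60 (-0.22) and HU150 (-0.92). The other uridylyltransferase gene of the list, SPCC794.10, had 0.11 in DIA30 and 0.01 in DIA60, and 0.13 in HU60 and 0.05 in HU150, and passed in HU60 (adjusted p = 0.0264). Rebuilt levels in control cells were 1538 normalized counts for SPCC794.10 and 29583 for fyu1, not corrected for transcript length. In HU150, 4 fell and 1 rose (median -0.31), against 31.7% and 33.1% of all genes. In DIA30, 3 fell and 1 rose (median -0.07), against 28% and 29.1%, and in HU60 2 fell and 2 rose (median -0.08), against 22.2% and 24.6%. Nothing particular to the list is read from counts over 6 genes.

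Of 8 genes of the cyclic AMP pathway and the Sck kinases, which act on the trehalase protein, 4 rose and 1 fell in DIA60, with a median LFC of 0.16, where 36.4% of all genes rose and 35.3% fell. The gene gpa2, a heterotrimeric G protein alpha subunit upstream of adenylate cyclase, was raised in DIA60 (LFC 1.17, SE 0.05, adjusted p = 1.42e-115), as were 4.19% of all genes at the 2-fold threshold. In DIA30, 3 rose and 3 fell (median 0.00), against 29.1% and 28% of all genes. In HU60, 3 rose and 1 fell (median 0.09), against 24.6% and 22.2%, and in HU150 1 rose and 3 fell (median -0.06), against 33.1% and 31.7%. Nothing particular to the list is read from counts over 8 genes. The kinase gene pka1 had -0.56 in DIA30 (adjusted p = 1.52e-17) and -0.16 in DIA60 (adjusted p = 0.017), and 0.37 in HU60 (adjusted p = 1.03e-08) and 0.21 in HU150 (adjusted p = 0.00103). Its direction in each condition was that of ntp1, at smaller LFCs in DIA60, HU60 and HU150. No other gene of the list had the direction of ntp1 in all 4 comparisons. The share of all genes with these directions is not given here, and a link of pka1 to ntp1 was not tested. The LFCs of cgs2 were 0.42 in DIA30 and 0.43 in DIA60, and 0.32 in HU60 and 0.17 in HU150. Those of git3 were 0.04 and 0.09 in DIA, and -0.17 and -0.55 in HU. For cyr1 they lay between -0.19 and 0.08. The gene cgs1 had -0.76 and -0.21 in DIA, and 0.42 and -0.12 in HU. The genes of the Sck kinases took other courses. The LFCs of sck1 were 0.20 in DIA30 and 0.23 in DIA60, and 0.09 in HU60 and 0.03 in HU150, and those of sck2 were -0.03 and 0.25 in DIA, and -0.33 and -0.52 in HU.

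Of 9 genes of the Sty1 pathway, 5 rose and 2 fell in DIA30 (median LFC 0.22), against 29.1% and 28% of all genes, and 6 rose and 3 fell in DIA60 (0.45), against 36.4% and 35.3%. In HU60, 5 rose and 2 fell (0.11), against 24.6% and 22.2%, and in HU150 3 rose and 4 fell (-0.06), against 33.1% and 31.7%. Most genes of the cell passed in DIA and in HU150, so that a large part of any list of this size would pass there. The kinase gene sty1 rose in DIA30 (LFC 0.34, SE 0.04) and DIA60 (0.45, SE 0.04). The genes upstream of it, wak1, win1, mcs4 and wis1, also rose in both, with LFCs of 0.22 to 0.49 in DIA30 and 0.47 to 0.58 in DIA60. With HU, sty1 had 0.09 in HU60 and -0.06 in HU150. There wak1 rose (0.18 and 0.26) and wis1 fell (-0.23 and -0.58). The LFCs of mcs4 were 0.17 and 0.07, and those of win1 were -0.02 and -0.16. The gene of the transcription factor downstream of Sty1, atf1, fell in DIA30 (-0.67), DIA60 (-0.37), HU60 (-0.35) and HU150 (-0.89). The gene of its partner, pcr1, did not pass in DIA30 (-0.12, adjusted p = 0.124), and neither did tps1. In the other conditions pcr1 had the directions of tps1 and ntp1. Its LFC was -0.18 in DIA60 (adjusted p = 0.0107), 0.36 in HU60 (adjusted p = 3.92e-07) and 0.21 in HU150 (adjusted p = 0.00223). For pcr1, too, the share of all genes with these directions is not given. The tyrosine phosphatase gene pyp1, whose product dephosphorylates Sty1, was lowered in DIA30 (-1.35, SE 0.06, adjusted p = 2.19e-110) and DIA60 (-1.17, SE 0.06, adjusted p = 9.63e-88), where 1.69% and 3.95% of all genes were lowered at this threshold. Another phosphatase gene of the pathway, pyp2, had -0.01 in DIA30 and rose in DIA60 (0.37), HU60 (0.87) and HU150 (0.44). No gene of these 3 lists was called by DESeq2 at 2-fold in HU60 or HU150, where 2.28% and 5.78% of all genes were called. The unadjusted p was below 0.05 there for 4 and 5 of the 6 substrate genes, 6 and 5 of the 8 genes of the cyclic AMP list, and 8 and 7 of the 9 Sty1 pathway genes, as it was for 52.1% and 67.1% of all genes.

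The genes whose 4 LFCs lay nearest to those of a member were found by Euclidean distance among the 4867 genes with a mean of at least 50 normalized counts. For SPAC22F8.05 the nearest was rds1 (SPAC343.12), at a distance of 0.52, with -3.70 in DIA30 and -3.80 in DIA60, and 0.74 in HU60 and -0.35 in HU150. The next were gpd1 (SPBC215.05), glycerol-3-phosphate dehydrogenase, at 1.77, and SPAC637.03, an uncharacterized protein, at 1.87, against a median distance of 5.88. The nearest to tps1 were grx1, a glutaredoxin gene (0.18), pdp2, a PWWP domain protein gene (0.19), and pds5, a cohesin gene (0.20), with a median of 0.95. Those nearest to tpp1 were the zinc finger transcription factor gene loz1 (0.12), SPBC776.06c (0.14) and sle1 (0.15). Those nearest to ntp1 were the serine racemase gene sry1 (0.39), the cohesin gene psc3 (0.39) and wwm3 (0.40), with a median of 1.41. No member was among the 3 nearest genes of another member. The closest such pair was ntp1 and tps1, at 0.60, where tps1 was number 36 in the order around ntp1 and ntp1 number 391 in the order around tps1, and SPAC22F8.05 lay at 5.18 or more from each of the others.

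Genes next to a member are here the nearest protein-coding genes in the order of the RefSeq annotation, with other genes left out. The fall of SPAC22F8.05 in DIA was not found in the genes next to it. The gene before it, pet1, a phosphoenolpyruvate transporter gene, had 0.57 in DIA30 and 0.80 in DIA60, and the gene after it, pam1, a proteasome subunit gene, had 0.03 and 0.22. Beyond pam1, rtf1 had -0.49 in DIA30 (adjusted p = 4.54e-10) and -0.54 in DIA60 (adjusted p = 1.05e-12), a far smaller fall. Beyond pet1, SPAC22F8.03c did not pass in either, but its estimate was too imprecise to show that it stayed the same (LFC 0.99 in DIA60, adjusted p = 0.863). Of the genes around ntp1, the adjacent gene wwm2 rose in HU60 (LFC 0.80, adjusted p = 1.97e-22) and HU150 (0.63, adjusted p = 9.25e-15), and wwm3, the next gene on that side and number 3 among the profiles nearest to ntp1, had -0.30 in DIA30 and -0.42 in DIA60, and 0.91 in HU60 and 0.28 in HU150, of which the change in HU60 passed (adjusted p = 8.44e-05). On the other side atg38 had 0.26 in HU60 (adjusted p = 1.82e-06) and 0.07 in HU150 (adjusted p = 0.22), and mug168 beyond it rose with HU, by 0.27 at 60 min (adjusted p = 0.000263) and by 0.19 at 150 min (adjusted p = 0.00578). Before tpp1, its3, a phosphatidylinositol phosphate kinase gene, rose as tpp1 did with DIA, by 0.82 at 30 min (adjusted p = 8.44e-73) and by 0.43 at 60 min (adjusted p = 4.77e-21), and had -0.09 in HU60 (adjusted p = 0.102) and -0.53 in HU150 (adjusted p = 1.79e-28). The gene adg2 after tpp1 had -0.26 and -1.74 in DIA, and -0.69 and -4.35 in HU, where tpp1 rose. Past adg2, ted1 had -0.54 and -0.63 in DIA and -0.32 and -0.75 in HU, and passed in all 4 comparisons. On the far side of its3, poz1 did not pass in any. The genes adjacent to tps1, dbl4 and spg4, stayed between -0.28 and 0.26 in the 4 comparisons. Past spg4, hrb1 shared the rise of tps1 with HU, with LFCs of 0.54 after 60 min and 0.78 after 150 min, both passing. With DIA, hrb1 did not pass at either time (-0.03 and 0.10), while tps1 fell at 60 min. On the far side of dbl4, msn5 lay between -0.13 and 0.10.

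**Figure D5:**
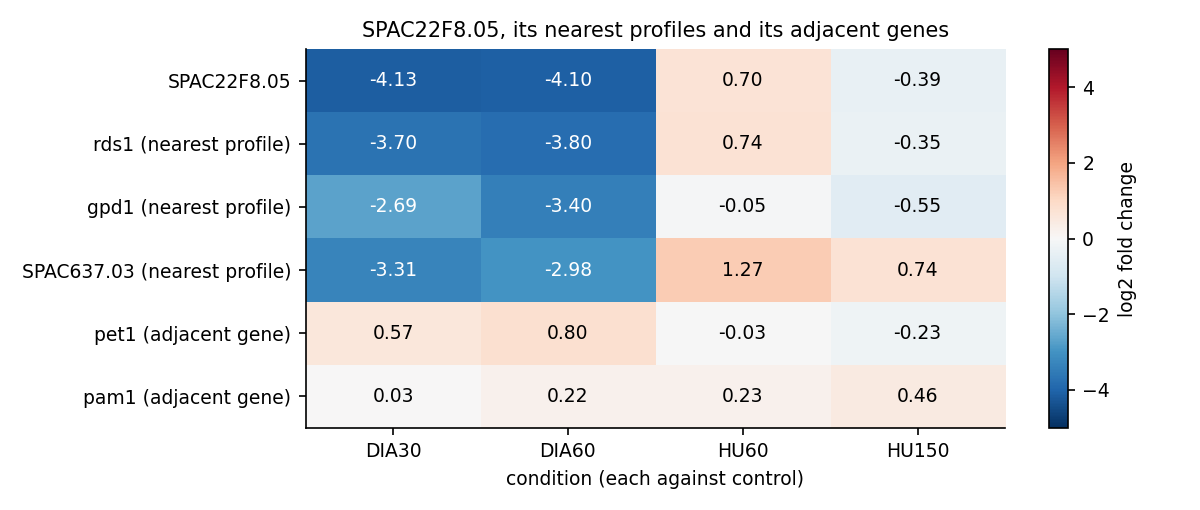
Log2 fold change against control (colour and printed value) in DIA30, DIA60, HU60 and HU150 for SPAC22F8.05, the 3 genes with the nearest profiles and the adjacent protein-coding genes pet1 and pam1. The row of rds1 is closest to that of SPAC22F8.05, with -3.70 and -3.80 in DIA, and the adjacent genes lie between -0.23 and 0.80.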

How the data were processed

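The libraries were made by BGI as strand-specific mRNA libraries. Mapping by the authors used STAR 2.7.10a with SAMtools 1.3 on ASM294v2, and counting used HTSeq 2.0.1 (its strand setting is not given in the sources used here). Every treatment was tested by the authors against untreated cells in DESeq2. The deposited tables hold the authors' log2 fold changes with standard errors, their Wald statistics as a score, two-sided p-values before and after adjustment, and a signal column, the mean of size-factor-normalized counts over all libraries. A further deposited table gives the GC percentage of the reads, 43.3% to 44.1%, and the read pairs per library. The labels name 1 sample per condition, and the repetitions, 3 per condition, stand in that table. The study calls the repetitions independent, and the labels do not say whether they are separate cultures.

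The fit against untreated cells is that of the authors and was not rerun. It was checked that the fold change over its standard error equalled the statistic (largest gap 1.56e-13) and that adjustment over a table equalled the adjusted p (largest gap 1.28e-15). Levels were computed from the mean and the fold changes with equally many libraries per condition, in Python 3.11.15 with scipy 1.17.1. The spread was solved from the standard errors under a count model with 1 dispersion per gene. Treatments were compared by a two-sided z-test, which was tested on simulated data. The simulation took the dispersions as known, so it does not cover the error of estimating them. The members were named throughout, with list genes called at least once and the 3 nearest profiles per member. Genes beyond this rule were chosen after their values were seen. They are SPCC794.10, the cyclic AMP and Sck genes except gpa2, the other Sty1 pathway genes and genes near the members. Members and lists were chosen with earlier results of these data known. Alternatives covered the fold threshold, a test against a 2-fold change, centring on the median gene, adjustment over genes with a mean of at least 50, and the standard error of the z-test, and, chosen after seeing the data, of differences between members. The RefSeq annotation (ASM294v3, of another build) gave names, products and gene order for 5101 of 5134 genes, so no sequence, promoter motif or coordinate is given.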

Additional observations from a re-analysis of the deposited data

Results flagged for a closer look

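Several members moved in opposite directions under the drugs, each direction passing the test against the control and the difference passing the z-test. Between HU60 and DIA60 these were SPAC22F8.05 (difference 4.80), ntp1 (1.46) and tps1 (1.02). Between HU150 and DIA60 they were ntp1 (1.19) and tps1 (0.75), and between HU60 and DIA30 they were SPAC22F8.05 (4.83) and ntp1 (1.33). Within HU, SPAC22F8.05 rose at 60 min and fell at 150 min, with a difference of -1.09 between HU150 and HU60. These pairs of comparisons share the control libraries, which cancel from the difference itself.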

How the results depend on the processing

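The number of members called against the control depended on the fold threshold. At 2-fold it was 1 in DIA30 and DIA60 and 0 in HU60 and HU150. At 1.5-fold it was 1 in DIA30 and 2 in DIA60, and 2 in HU60 and 1 in HU150, while with no minimum it was 3, 4, 4 and 4, in the same order. It was unchanged with a minimum of 2 for the log2 fold change, in a test against a 2-fold change, after centring on the median gene and after adjustment over genes with a mean of at least 50. In the pathway lists, 1 gene was called in DIA30, 3 in DIA60 and 0 in each HU comparison at 2-fold, against 5 in DIA30, 1 in HU60 and 3 in HU150 at 1.5-fold. Between treatments, a minimum difference of 1 left 0 of 2 members in DIA60 minus DIA30 and 2 of 4 in HU150 minus DIA60. With the rebuilt standard error, 4 members rather than 1 differed between HU150 and HU60. Among differences between members, 17 rather than 20 of 24 intervals were without 0 with the summed standard error, chosen after seeing the data. Of 88 alternatives for single genes, 85 kept direction and call, and the other 3 were those of tps1 (-0.27), tpp1 (-0.18) and ntp1 (-0.27) between HU150 and HU60, which passed with the rebuilt standard error. Leaving out single repetitions and the promoter motif search were not run, for lack of values per library and of a genome of the authors' build. No paired analysis was possible because the comparisons carry no value per repetition.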
